A study of Mus musculus with 9 samples.

Results

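Day 7 and day 3 after laser injury of the mouse eye were compared across tRNA-derived small RNAs. The comparison set 3 libraries from day 7 against 3 from day 3, of the 9 of the study. They were chosen by their labels, and all 200 fragments of the deposited expression table were used. Each library was made from complexes of retinal pigment epithelium (RPE), choroid and sclera of C57BL/6 mice. In the day 7 and day 3 groups, eyes of mice aged 6 to 8 weeks had been burned with a 532 nm laser at 110 mW for 100 ms, under avertin with pupils dilated by tropicamide, and a bubble marked the break of Bruch's membrane. The remaining 3 libraries came from untreated mice of the same strain. They entered the fit behind the calls of fragments, where they bore on the scaling factors and the estimate of spread. Whether each complex was taken from its own animal is not stated in the labels. The p-values therefore describe the spread among these libraries, which may be technical. The table lists tRNA fragments and no marker genes, so the labelled tissue was not checked against markers of its cells.

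Laser burns that break Bruch's membrane, the sheet between the RPE and the choroid, let choroidal vessels grow towards the retina, and the model is used to study choroidal neovascularization. Transfer RNAs are cut into stable fragments. Those called tRF-5 begin with the mature tRNA's first base (5a is the shortest kind and 5c the longest), and tiRNA-5 reach from there into the anticodon loop, where angiogenin and related nucleases cut under stress. Fragments called tRF-3 and tiRNA-3 end at the mature 3' end, which carries CCA added after transcription. Those called tRF-1 come from the trailer that is cut off the precursor behind the mature 3' end and that ends in a run of T where RNA polymerase III stops, so they mark processing of newly made precursors. The class tRF-2 lies inside the tRNA around the anticodon. A name holds the outer nucleotides of the fragment, then its parent as the table writes it; "tRF-1:31" is thus a 5' fragment of 31 nt, and "+1:T22" a trailer fragment that ends at its nucleotide 22.

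The sequences on which the results turn are given 5' to 3' as the table holds them, in DNA letters. In 5' fragments the capitals start 3 bases before the first base of the anticodon, so a longer capital end means a cut nearer to the anticodon. Capitals mark the CCA end in the 3' fragments, the terminal T run in the trailer fragment and the anticodon in the inner fragment. The 34 nt fragments of Glu-TTC-3 and Lys-CTT-3 did not pass the test and were added after their values were seen, because their shorter neighbours differed.
tRF-1:31-Gly-GCC-2-M3: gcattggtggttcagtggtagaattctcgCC
tRF-1:32-Gly-GCC-2-M3: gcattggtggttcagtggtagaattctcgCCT
tiRNA-1:33-Gly-GCC-2-M3: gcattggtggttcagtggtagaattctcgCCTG
tRF-1:29-Gly-GCC-1: gcatgggtggttcagtggtagaattctcg
tiRNA-1:33-Gly-CCC-3-M2: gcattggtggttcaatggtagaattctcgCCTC
tRF-1:31-Glu-TTC-3: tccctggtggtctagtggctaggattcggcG
tiRNA-1:34-Glu-TTC-3: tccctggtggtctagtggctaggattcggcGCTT
tRF-1:31-Glu-CTC-2: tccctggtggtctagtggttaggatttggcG
tRF-1:31-Ala-CGC-5: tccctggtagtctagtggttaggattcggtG
tiRNA-1:34-Lys-CTT-3: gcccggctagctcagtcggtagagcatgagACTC
tRF-+1:T23-Arg-ACG-1-3: ttgggactggtactcctttaTTT
tRF-54:75-Ala-CGC-1-M2: tcgatccccggcatctccaCCA
tiRNA-32:71-chrM.His-GTG: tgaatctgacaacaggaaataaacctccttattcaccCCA
tRF-54:70-chrM.Trp-TCA: aagtttaacttctgCCA
tRF-30:43-Gln-CTG-1-M5: gactCTGaatccag

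Several of these are near copies, which bears on how their counts can be assigned. With positions counted from 1 at the 5' end, the 31 nt fragment of Gly-GCC-2-M3 and that of Gly-GCC-1 differ by T5G alone. The 33 nt fragments of Gly-GCC-2-M3 and Gly-CCC-3-M2 differ by G15A and G33C. The 31 nt fragments of Glu-TTC-3 and Glu-CTC-2 differ by C19T and C27T, and the 32 nt fragments of Glu-TTC-3 and Ala-CGC-5 by G9A, C19T and C30T. Several tRNA genes were hit by 74 of the 200 fragments and several anticodons by 41, and neighbouring lengths share a parent. The mitochondrial His-GTG fragment matched chromosome M of GRCm38 at 11576 to 11612 on the plus strand, in the tRNA gene mt-Th (11546 to 11612), once its CCA was taken off. The Trp-TCA fragment matched 5003 to 5016 in mt-Tw (4950 to 5016) in the same way.

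Mapped reads numbered 1204173, 1791720 and 1449949 in day 7 replicates 1 to 3 and 2012274, 2138312 and 1638381 in day 3 replicates 1 to 3. The listed fragments held 75.3%, 78.6% and 77.2% of them at day 7, against 62.1%, 58.3% and 56.0% at day 3. The groups did not overlap in this share, which averaged 77.0% ± 1.67 at day 7 and 58.8% ± 3.05 at day 3 (SD, n = 3 each; two-sided exact permutation p = 0.1, which is the lower limit for groups of 3; 0.292 after Benjamini-Hochberg adjustment over 35 shares and ratios). Untreated libraries averaged 75.8%. In bulk tissue, fewer cells of a type and less RNA per cell cannot be told apart.

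Of the 200 fragments, 69 differed between day 7 and day 3 (34.5%; edgeR quasi-likelihood test, Benjamini-Hochberg adjusted p below 0.05), 46 higher (23%) and 23 lower (11.5%) at day 7. Counted by fragment and not by amount, the direction followed the side of the tRNA. Every one of the 23 that fell was a 5' fragment. The 46 that rose comprised 18 ending at the mature 3' end, 12 trailer fragments, 15 5' fragments and the single tRF-2. Most of the 200 were 5' fragments (146), of which 10.3% rose and 15.8% fell. Of the 37 ending at the mature 3' end 48.6% rose, and of the 16 trailer fragments 75%. Fewer passed without day 7 replicate 1 (44), day 3 replicate 1 (45) or day 3 replicate 2 (39). Libraries did not overlap for 72 fragments, with day 7 above day 3 in 30 (15%) and below it in 42 (21%).

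Scaling set the balance of the directions. With trimmed-mean (TMM) factors the median log2 fold change over all 200 fragments was 0.15; with plain mapped totals it was -0.12, and with listed counts as the total it was -0.51. The split of 46 higher and 23 lower became 37 and 35 with relative log expression factors, 35 and 39 with DESeq2, 34 and 39 with TMM factors taken without Gly-GCC, 30 and 39 with mapped totals, and 9 and 63 with listed counts. No fragment among the 69 changed sign under any of these settings. Fold changes below come from the fit with TMM factors, so they can differ from ratios of CPM (counts scaled to the mapped reads of a library), which carry no such factor.

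By class, the shift differed between the sides of the tRNA, and the 5' classes differed among themselves. Of 16 tRF-1, 12 rose and 0 fell, with a median log2 fold change of 1.53 against 0.15 over all fragments. Of 28 tRF-3a, 12 rose and 0 fell (median 0.78), of 6 tRF-3b 3 rose and 0 fell (1.14), and all 3 tiRNA-3 rose (2.06). Among 83 tRF-5c, 6 rose and 19 fell (median -0.48), and among 29 tRF-5a 2 rose and 3 fell (-0.25). In summed CPM, where Gly-GCC weighs most, the tRF-5c were higher at day 7 without overlap of libraries. Their sum averaged 718764 ± 26760 at day 7 and 559935 ± 34984 at day 3 (SD, n = 3 each). The 9 tRF-5b had 2 that rose and 0 that fell (0.30), and the 25 tiRNA-5 had 5 that rose and 1 that fell (0.70). The shares that rose in tRF-5b (22.2%) and tiRNA-5 (20%) were near the 23% of all fragments. The tRF-1 median stayed above 0 under every scaling tried, at its lowest 0.89 with listed counts as the total, and the tRF-5c median stayed below 0, reaching -1.14 there. With that total, 2 of 16 tRF-1 still rose, the tRF-3a median was 0.09, and 1 of 28 tRF-3a rose and 1 fell, so that a fragment of the 3' end was then among those that fell.

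**Figure D1:**
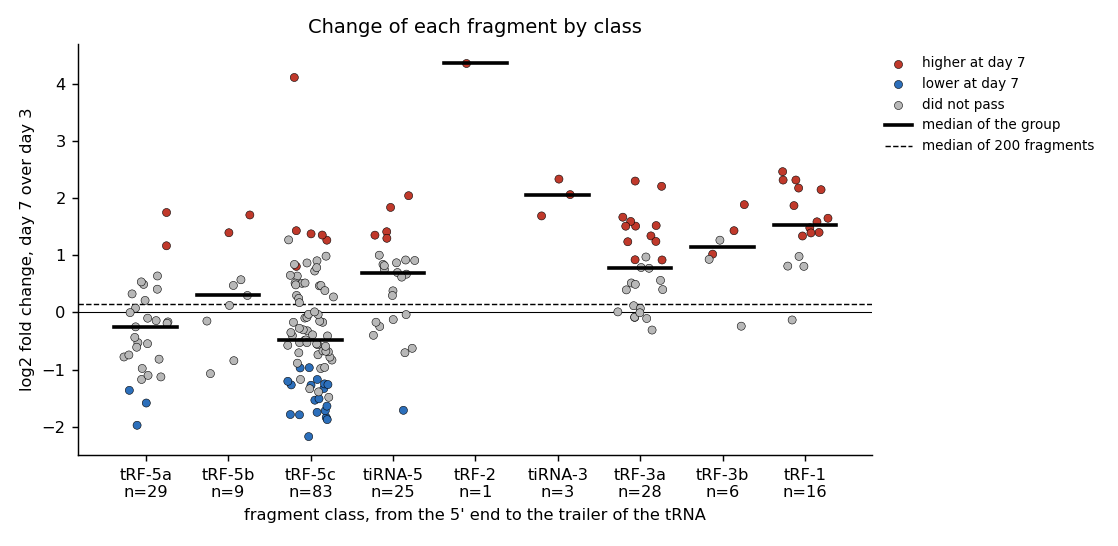
Log2 fold change of each of the 200 fragments, day 7 over day 3 (y axis), by class (x axis), with TMM scaling; red points were higher and blue points lower at day 7 with adjusted p below 0.05, grey points did not pass, black bars are class medians and the dashed line is the median of all fragments. The bars of tRF-1, tRF-3 and tiRNA-3 lie above the dashed line and those of tRF-5a and tRF-5c below 0, and every blue point is a 5' fragment.

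Fragments of tRNA Gly-GCC made up nearly all listed counts at both times, and within them the longest form rose most. They held 95.0%, 96.6% and 95.8% of listed counts at day 7, against 92.9%, 93.2% and 91.3% at day 3, with no overlap (exact permutation p = 0.1, adjusted 0.292). The fragment with the smallest p of the whole comparison was tiRNA-1:33-Gly-GCC-2-M3, which ends on the first anticodon base. It had 38312, 29813 and 27373 CPM at day 7 and 7558, 8555 and 12600 CPM at day 3, so that the lowest day 7 library was above the highest day 3 library. Its log2 fold change was 2.04 (SE 0.325, edgeR adjusted p = 0.000684), and it averaged 13349 CPM in untreated libraries. Across the settings tried its log2 fold change lay between 1.33 and 2.25 and always passed.

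The 32 nt form, tRF-1:32-Gly-GCC-2-M3, had 260060, 131503 and 155990 CPM at day 7 and 77620, 111706 and 84068 CPM at day 3. The groups did not overlap, although day 7 replicate 1 stood far above replicates 2 and 3, and the log2 fold change was 1.26 (SE 0.281, edgeR adjusted p = 0.0041). With listed counts as the total it was 0.62 and just missed the threshold (adjusted p = 0.0506). The 31 nt form, tRF-1:31-Gly-GCC-2-M3, the most abundant fragment of the table, had 359742, 504771 and 458071 CPM at day 7 and 333939, 317363 and 322538 CPM at day 3. Its libraries did not overlap either, with day 7 replicate 1 nearest to day 3. It rose by a log2 fold change of 0.81 (SE 0.268, edgeR adjusted p = 0.0254), a call that was lost in 13 of the settings tried, with log2 fold changes of 0.05 to 1.07 and adjusted p up to 0.848 among the settings.

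At 30 nt the groups overlapped. The fragment tRF-1:30-Gly-GCC-2-M3 had 29061, 65081 and 66766 CPM at day 7 and 102971, 62007 and 51391 CPM at day 3 (log2 fold change -0.03, adjusted p = 0.954), and its sign turned without day 7 replicate 1 (0.35) or day 3 replicate 1 (0.37). With listed counts as the total it passed as lower (-0.81, adjusted p = 0.0212). As a share of all listed 5' counts of Gly-GCC-2-M3, the 33 nt form held 5.54%, 4.05% and 3.84% at day 7 and 1.42%, 1.66% and 2.65% at day 3. The 29 nt form held 0.322%, 0.361% and 0.347% at day 7 and 1.46%, 2.20% and 0.658% at day 3. The 33 nt and 29 nt forms thus differed in opposite directions without overlap of libraries. The 31 nt form held 61.7% ± 8.62 at day 7 and 64.1% ± 3.36 at day 3. The shortest form listed, of 16 nt, overlapped, at 0.00512% ± 0.00295 at day 7 and 0.00361% ± 0.00145 at day 3.

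Relative to Gly-GCC-2-M3, its near copy Gly-GCC-1 was scarcer at day 7. Its fragments of 28 to 33 nt summed to 3.38%, 3.20% and 3.91% of the Gly-GCC-2-M3 counts at day 7 and to 8.29%, 5.53% and 7.62% at day 3, with no overlap (exact permutation p = 0.1, adjusted 0.292; untreated mean 2.63%). The fragment tRF-1:29-Gly-GCC-1 had the lowest log2 fold change of all fragments, with 156, 177 and 188 CPM at day 7 and 1202, 1257 and 504 CPM at day 3. The day 7 libraries were close to each other and all below day 3 (log2 fold change -2.17, SE 0.437, edgeR adjusted p = 0.00258). The 29 nt form of Gly-GCC-2-M3 was lower too, so this fall was not particular to Gly-GCC-1. It had 2677, 4754 and 3586 raw counts at day 7 and 15649, 24289 and 5120 at day 3. The 31 nt form tRF-1:31-Gly-GCC-1, at 17772 ± 2329 CPM at day 7 and 24338 ± 5551 CPM at day 3 (SD, n = 3 each), did not pass (-0.10, adjusted p = 0.837), its sign turned without day 7 replicate 1 (0.14) or day 3 replicate 1 (0.06), and with listed counts as the total it passed as lower (-0.84, adjusted p = 0.0212). How many Gly-GCC-1 reads are misread Gly-GCC-2-M3 was not tested.

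A 33 nt fragment of a glycine tRNA with another anticodon, tiRNA-1:33-Gly-CCC-3-M2, had 151, 80.9 and 95.2 CPM at day 7 and 57.6, 35.5 and 54.3 CPM at day 3. Day 7 was above day 3 in every library, by a log2 fold change of 1.41 (SE 0.337, edgeR adjusted p = 0.00533), a call that was lost with listed counts as the total (0.77, adjusted p = 0.142). Of the 14 Gly-CCC fragments, 4 rose (28.6%, near the 23% of all fragments) and 0 fell, with a median of 0.71, and with listed counts as the total 0 rose and 2 fell.

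**Figure D2:**
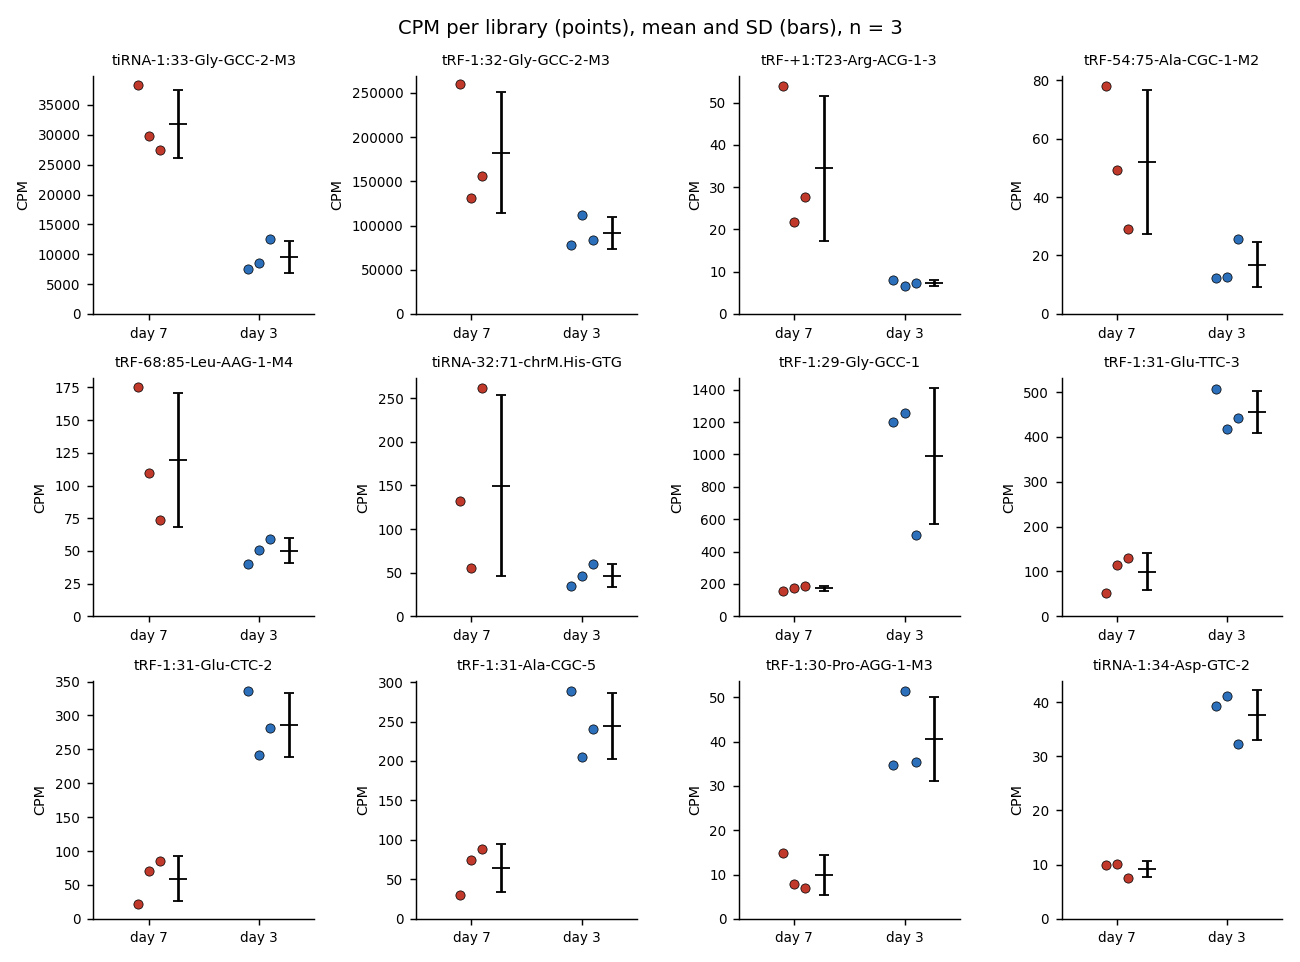
CPM of 12 named fragments (y axis, a separate linear scale from 0 in each panel) in the day 7 libraries (red) and the day 3 libraries (blue); each point is 1 library and the bar beside the points is the mean with its SD (n = 3). In the first 6 panels day 7 is higher, with overlap of groups only for tiRNA-32:71-chrM.His-GTG, and in the last 6 every day 7 library is below every day 3 library.

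Trailer fragments rose for several parents. The 5 fragments of Arg-ACG, all of this class, rose (median 2.17 against 0.15 over all), and in each of them day 7 was above day 3 in every library. The fragment tRF-+1:T23-Arg-ACG-1-3 had 53.98, 21.8 and 27.6 CPM at day 7 and 7.95, 6.55 and 7.32 CPM at day 3 (log2 fold change 2.46, SE 0.412, edgeR adjusted p = 0.000684). Its neighbour tRF-+1:T22-Arg-ACG-1-3, shorter by 1 T, had 84.7, 45.2 and 61.4 CPM at day 7 and 20.9, 8.89 and 16.5 CPM at day 3 (2.32, adjusted p = 0.000815). Untreated libraries averaged 28.9 CPM for the longer and 51.2 CPM for the shorter, nearer to day 7 than to day 3 in both.

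The most abundant trailer fragment, tRF-+1:T16-iMet-CAT-1 of the initiator methionine tRNA, had 339, 220 and 114 CPM at day 7 and 72.6, 59.4 and 123 CPM at day 3. It rose by a log2 fold change of 1.65 (SE 0.405, edgeR adjusted p = 0.00634), but day 7 replicate 3 lay below day 3 replicate 3, and with listed counts as the total it did not pass (1.00, adjusted p = 0.0709). The trailer counts of all 16 tRF-1 summed to 1300, 788 and 521 CPM at day 7 and 357, 258 and 513 CPM at day 3, with a narrow gap between day 7 replicate 3 and day 3 replicate 3. Those that did not pass were both Cys-GCA-3-3 trailers, tRF-+1:T29-Thr-CGT-1 and tRF-+1:T27-chrM.Gly-TCC, which is the only one with a log2 fold change below 0 (-0.13). That last sequence matched 9459 to 9485 of chromosome M, where the annotation has mt-Nd3 (9459 to 9806), a protein-coding gene, and its origin from a trailer was not tested.

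Among fragments that end at the mature 3' end, tRF-54:75-Ala-CGC-1-M2, with the CCA tail, had 78.1, 49.1 and 28.97 CPM at day 7 and 12.4, 12.6 and 25.6 CPM at day 3. Every day 7 library was above day 3, by little for day 7 replicate 3 (log2 fold change 1.89, SE 0.375, edgeR adjusted p = 0.00258). The fragment tRF-68:85-Leu-AAG-1-M4 had 175, 110 and 73.8 CPM at day 7 and 40.3, 51.0 and 59.2 CPM at day 3, again with no overlap (1.51, SE 0.35, adjusted p = 0.00474; 0.86 and 0.107 with listed counts as the total). The most abundant tRF-3a, tRF-60:76-Tyr-GTA-1-M5, overlapped at 136 ± 55.7 CPM at day 7 and 101 ± 35.9 CPM at day 3 (SD, n = 3 each; log2 fold change 0.77, adjusted p = 0.132). The most abundant tRF-3b, tRF-53:74-Gly-CCC-2-M4, overlapped too, at 54.6 ± 29.04 CPM at day 7 and 31.8 ± 13.9 CPM at day 3, and its call (1.02, edgeR adjusted p = 0.0398) was lost in 12 settings.

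Day 7 replicate 1 was the highest of the 6 libraries for tRF-54:75-Ala-CGC-1-M2, tRF-68:85-Leu-AAG-1-M4, tRF-53:74-Gly-CCC-2-M4 and tRF-+1:T16-iMet-CAT-1, and for the T22 and T23 trailers of Arg-ACG-1-3. As shares of listed counts the groups overlapped, with 3' fragments at 0.218% ± 0.0695 at day 7 and 0.200% ± 0.0631 at day 3 (SD, n = 3 each; exact permutation p = 0.6) and trailer fragments at 0.114% ± 0.0539 at day 7 and 0.0644% ± 0.0244 at day 3 (p = 0.2). Summed CPM of 3' fragments overlapped too, at 2246, 1375 and 1401 at day 7 and 932, 1047 and 1519 at day 3. That of 5' fragments was higher at day 7 without overlap, at 748979, 783567 and 770352, against 619447, 582179 and 558354 at day 3. Within counts other than Gly-GCC, which leave the dominant tRNA out of the total, 3' fragments held 5.92%, 5.04% and 4.33% at day 7 and 2.09%, 2.64% and 3.06% at day 3. Trailer fragments held 3.44%, 2.92% and 1.61% at day 7 and 0.809%, 0.654% and 1.05% at day 3. On this total, chosen after the shares of listed counts were seen, neither pair overlapped, and the exact permutation p was 0.1 in both.

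Of 17 mitochondrial fragments, 7 rose (41.2%, against 23% of all fragments) and 0 fell (against 11.5%), with a median of 0.65. With listed counts as the total 3 rose and 0 fell, and the median was -0.13. The 3 fragments of the mitochondrial His-GTG tRNA, all cut in the anticodon loop and running to the 3' end, were among the 7. Mitochondrial serine tRNAs gave 3 more, so the 7 come from few parents. The complete one, tiRNA-32:71-chrM.His-GTG, had 132, 55.8 and 261 CPM at day 7 and 34.3, 45.8 and 59.8 CPM at day 3. The groups overlapped through day 7 replicate 2 (log2 fold change 2.06, SE 0.47, edgeR adjusted p = 0.00474). A form the table names tiRNA-32:69-chrM.His-GTG-M1-37:C>A, which matched the same bases of mt-Th with a single A behind them, had 36.5, 10.6 and 14.5 CPM at day 7 and 2.98, 2.81 and 8.55 CPM at day 3, with no overlap (2.33, adjusted p = 0.00474). The short fragment tRF-54:70-chrM.Trp-TCA had 50.7, 34.05 and 15.2 CPM at day 7 and 10.9, 7.48 and 6.71 CPM at day 3 (2.21, SE 0.449, adjusted p = 0.00258), again without overlap. The most abundant mitochondrial fragment, tRF-1:22-chrM.Ser-GCT (chromosome M, 11613 to 11634, in mt-Ts2), did not pass, with 1591 ± 610 CPM at day 7 and 1365 ± 366 CPM at day 3 (0.57, adjusted p = 0.317).

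Near absence at day 3 marked 2 fragments. The only tRF-2, tRF-30:43-Gln-CTG-1-M5, had 22, 24 and 22 raw counts at day 7 and 1, 3 and 1 at day 3 (log2 fold change 4.37, SE 1.00, edgeR adjusted p = 0.00474), and untreated libraries had 6, 82 and 3. The fragment tRF-1:29-Val-CAC-4, named after its values were seen because it is the one 5' fragment with so large a rise, had 14, 14 and 18 counts at day 7 and 1, 2 and 1 at day 3 (4.11, adjusted p = 0.0124), and untreated libraries had 12, 71 and 0. Both spread more among the untreated libraries than between day 7 and day 3.

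Of the 23 fragments that fell, all 5' pieces, 7 came from glutamate, 5 from alanine, 3 from glycine, 2 each from proline, valine and leucine, and 1 each from aspartate and lysine tRNAs, and 18 ended 1 to 4 nt before the anticodon. Ends of this kind are found in 65 of all 200 fragments, and 27.7% of these fell, against 11.5% of all. Of 21 glutamate fragments 0 rose and 7 fell (median -0.74). The fragment tRF-1:31-Glu-TTC-3 had 53.1, 114 and 131 CPM at day 7 and 508, 418 and 442 CPM at day 3, groups far apart, with a log2 fold change of -1.79 (SE 0.429, edgeR adjusted p = 0.00533). Its 30 nt and 32 nt neighbours fell by 1.75 and 1.27 on the log2 scale (adjusted p = 0.00398 and 0.0101). The 34 nt form tiRNA-1:34-Glu-TTC-3, which ends on the first anticodon base, had 2254, 1548 and 1538 CPM at day 7 and 1409, 1767 and 2161 CPM at day 3. These groups overlapped fully (log2 fold change 0.30, adjusted p = 0.567).

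The same held for Glu-CTC-2, whose counts are close in sequence and so are not separate evidence. The 31 nt fragment tRF-1:31-Glu-CTC-2 had 22.4, 70.3 and 85.5 CPM at day 7 and 335, 241 and 282 CPM at day 3 (log2 fold change -1.83, SE 0.467, edgeR adjusted p = 0.00759). The 30 nt and 32 nt forms fell by 1.72 and 1.53, and the 34 nt form did not pass (-0.04, adjusted p = 0.949). The 30 nt call was lost without day 7 replicate 1 (adjusted p = 0.0632) or day 3 replicate 1 (0.0768). The similar tRF-1:31-Ala-CGC-5 had 29.9, 74.8 and 88.3 CPM at day 7 and 289, 205 and 240 CPM at day 3, with no overlap (-1.51, SE 0.444, adjusted p = 0.0143), and its call was lost without day 3 replicate 1 (-1.33, adjusted p = 0.06). In each of these 31 nt fragments day 7 replicate 1 was the lowest library.

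The remaining named fragments that fell were scarce. The proline fragment tRF-1:30-Pro-AGG-1-M3 had 14.9, 7.81 and 6.90 CPM at day 7 and 34.8, 51.4 and 35.4 CPM at day 3 (log2 fold change -1.78, edgeR adjusted p = 0.00292). The 34 nt fragment tiRNA-1:34-Asp-GTC-2 had 9.97, 10.05 and 7.59 CPM at day 7 and 39.3, 41.2 and 32.3 CPM at day 3 (-1.71, adjusted p = 0.00324), and it was the only tiRNA-5 that fell. A pair of leucine fragments of 16 nt fell as well, tRF-1:16-Leu-AAG-2-M3 at 11.3 ± 5.24 CPM at day 7 and 40.6 ± 13.4 CPM at day 3 (-1.58) and tRF-1:16-Leu-CAG-1-M3 at 21.6 ± 4.29 CPM at day 7 and 69.4 ± 18.7 CPM at day 3 (-1.36; SD, n = 3 each). Day 7 was below day 3 in every library for these 4. The most abundant tRF-5a, tRF-1:15-Ser-AGA-1-M3, overlapped at 229 ± 109 CPM at day 7 and 468 ± 216 CPM at day 3 (-0.61, adjusted p = 0.298), and passed as lower with listed counts as the total (-1.45, adjusted p = 0.0094).

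As shares of listed counts, Val-AAC held 0.641%, 0.720% and 0.465% at day 7, against 1.63%, 1.75% and 1.80% at day 3. Glu-TTC averaged 0.718% ± 0.155 at day 7 and 1.48% ± 0.348 at day 3 (SD, n = 3 each). Ala-CGC averaged 0.113% at day 7 and 0.340% at day 3, and Pro-AGG 0.0681% at day 7 and 0.193% at day 3. The share of Arg-ACG was higher at day 7, at 0.0215% ± 0.00776 at day 7 and 0.00729% ± 0.00208 at day 3. Of 35 such shares and ratios, 4 had day 7 above day 3 in every library (11.4%) and 8 had it below (22.9%), each with an exact permutation p of 0.1 and an adjusted p of 0.292.

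How near to the anticodon a 5' fragment ends was examined after the values above were seen, and is described without a test. Of the 24 nuclear fragments that end on the first anticodon base, 4 rose (16.7%, against 23% of all fragments) and 1 fell (4.17%, against 11.5%), with a median log2 fold change of 0.68. Their count of rises was thus no higher than among all fragments. Those that end 1 nt before it numbered 9, with 1 that rose and 0 that fell (median 0.47). At 2 nt before it, 2 of 25 rose and 4 fell (-0.49), at 3 nt 2 of 19 rose and 7 (36.8%) fell (-1.17), and at 4 nt 0 of 12 rose and 7 (58.3%) fell (-1.11). Medians thus lay above that of all fragments for ends on or next to the anticodon and below it for ends 2 to 4 nt away.

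**Figure D3:**
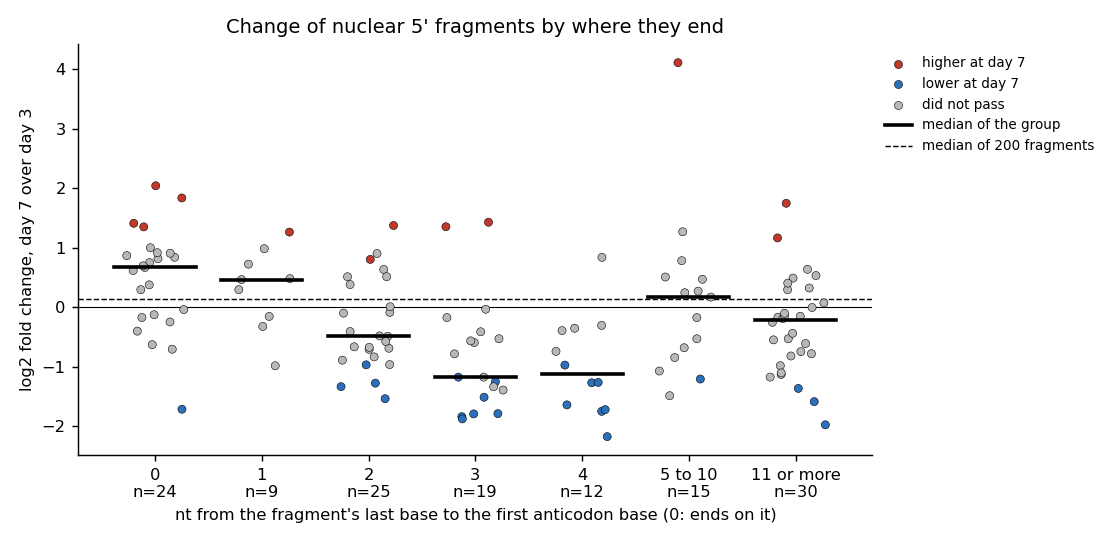
Log2 fold change of nuclear 5' fragments, day 7 over day 3 (y axis), by the number of nucleotides between their last base and the first anticodon base (x axis); red points were higher and blue points lower at day 7 with adjusted p below 0.05, black bars are group medians and the dashed line is the median of all 200 fragments. The bar falls to -1.17 at 3 nt and is at 0.68 for fragments that end on the first anticodon base.

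A ratio within a parent does not depend on how libraries are scaled. For each of 17 parents, counts of the fragment that ends on the first anticodon base were divided by counts of those that end 1 to 4 nt before it. In 9 parents the ratio was higher in every day 7 library than in every day 3 library (52.9%), in 1 it was lower (5.88%), and in 7 the groups overlapped. The log2 ratio was higher at day 7 by 2.13 for Glu-TTC-3, 2.03 for Glu-CTC-2, 1.74 for Lys-CTT-3, 1.44 for Lys-CTT-2 and 1.01 for Lys-TTT-1. Among glycine tRNAs the difference was 1.63 for Gly-TCC-1, 1.30 for Gly-GCC-2-M3 and 1.03 for both Gly-CCC-3-M2 and Gly-GCC-1. It was lower by 0.64 at day 7 for His-GTG-2. The 7 parents that overlapped include the other glutamate ones, with differences of 0.02 for Glu-TTC-1 and 0.62 for Glu-TTC-2. The rest were 1.12 for Ala-CGC-5, 0.73 for Gly-CCC-2, 0.15 for Gly-CCC-1, 0.14 for Pro-TGG-1 and -0.87 for Asp-GTC-1-M2. The 10 differences without overlap could not change sign with any 1 library left out, so leaving libraries out was no check on them. Parents of near identical sequence, such as Glu-TTC-3 and Glu-CTC-2 or both Gly-GCC ones, may share reads.

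**Figure D4:**
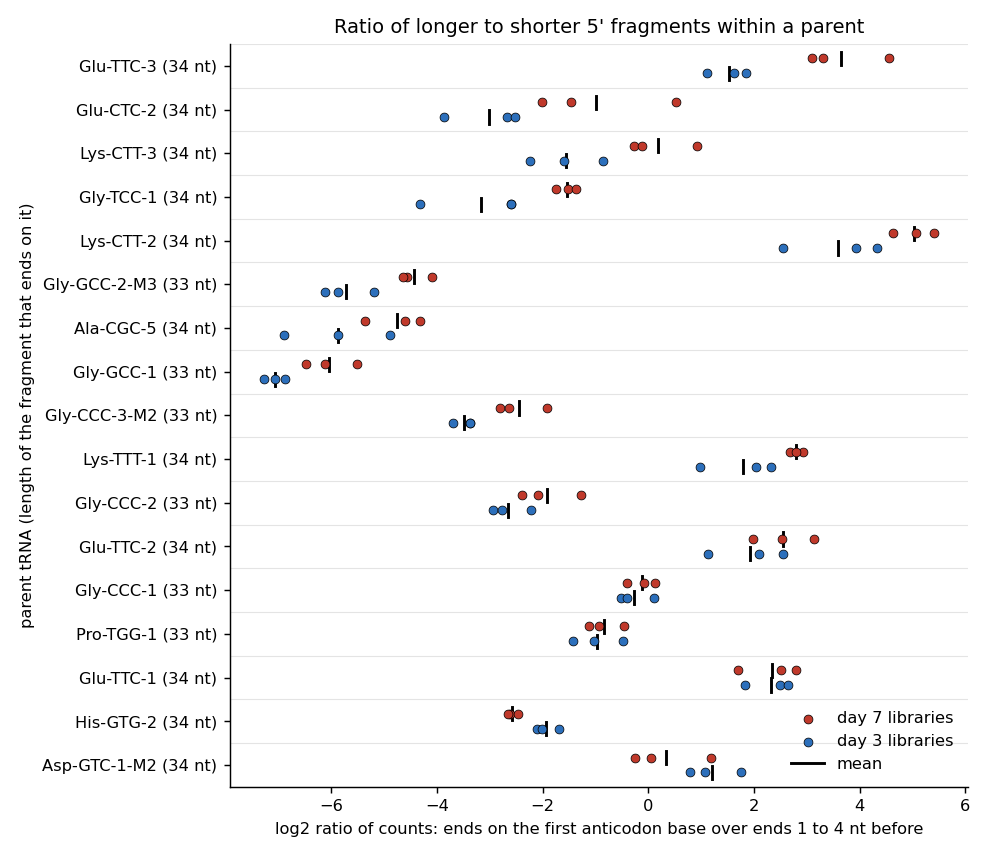
Log2 ratio of counts that end on the first anticodon base to counts that end 1 to 4 nt before it (x axis) for 17 parent tRNAs (y axis, with the length of the longer fragment); points are libraries, red for day 7 (upper row of each parent) and blue for day 3 (lower row), and black ticks are group means. Parents are ordered by the difference of the means, and red lies wholly to the right of blue in 9 of them and wholly to the left in His-GTG-2.

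In Glu-TTC-3 the longer form held 95.9%, 90.8% and 89.6% of these counts at day 7 and 68.3%, 75.5% and 78.2% at day 3, and 75.9% on average in untreated libraries. In Lys-CTT-3 it held 65.5%, 45.2% and 48.0% at day 7 and 24.8%, 17.5% and 35.5% at day 3, and 59.8% in untreated libraries. Day 7 thus lay above the untreated mean in Glu-TTC-3 and on both sides of it in Lys-CTT-3. In CPM, tiRNA-1:34-Lys-CTT-3 had 6991, 2564 and 4413 at day 7 and 2212, 1631 and 5105 at day 3, which overlapped (log2 fold change 0.91, edgeR adjusted p = 0.0943). The 32 nt form tRF-1:32-Lys-CTT-3 had 2965, 2231 and 3715 CPM at day 7 and 4939, 5972 and 7351 CPM at day 3, without overlap but short of the threshold (-0.69, adjusted p = 0.138). Neither form passed the edgeR threshold alone. The ratio of the longer form to the shorter ones separated the groups, but so did the 32 nt form. Separation of libraries is another criterion than that threshold.

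**Figure D5:**
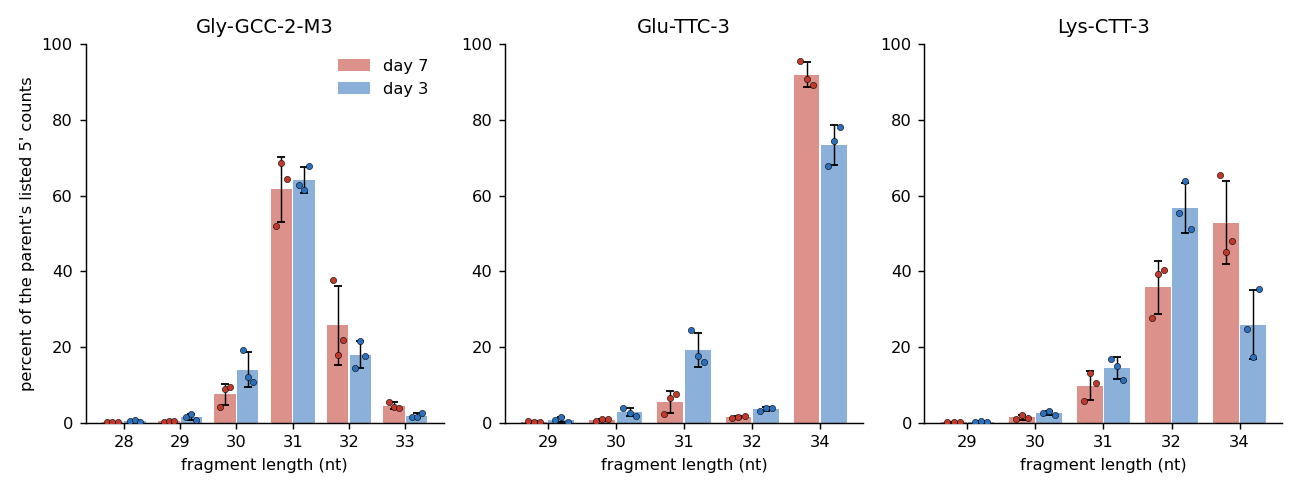
Percent of a parent's listed 5' counts (y axis) by fragment length of 28 nt and more (x axis) for Gly-GCC-2-M3, Glu-TTC-3 and Lys-CTT-3; red bars and points are day 7, blue ones day 3, bars are means with SD (n = 3) and points are libraries. In Glu-TTC-3 and Lys-CTT-3 the 34 nt form takes a larger part at day 7 and the 31 and 32 nt forms a smaller one.

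Nuclear His-GTG is set apart because the ratio ran the other way in His-GTG-2 without overlap of libraries. It ran that way in Asp-GTC-1-M2 too (-0.87), with overlap. Of the 8 fragments of His-GTG, 4 rose and 0 fell (median 1.31, and 0.66 with listed counts as the total), and 2 of the 4 were 31 and 32 nt forms of His-GTG-2 that end before the anticodon (1.35 and 1.37). The 34 nt form of His-GTG-2 did not pass (0.67, adjusted p = 0.114). As a share of the counts that end on the first anticodon base or up to 4 nt before it, it held 14.3% ± 0.868 at day 7 and 20.7% ± 2.54 at day 3 (SD, n = 3 each).

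A cruder ratio, 32 and 33 nt over 30 and 31 nt, was compared in 19 parents. It was higher at day 7 without overlap in Gly-CCC-1, by 1.36 on the log2 scale, and in Gly-TCC-1, by 0.85 (2 of 19, 10.5%; exact permutation p = 0.1, adjusted 0.633), and lower without overlap in 0 of 19 (0%). For Gly-GCC-2-M3 and Gly-GCC-1 it was 0.75 and 0.74 higher at day 7, with overlap (exact permutation p = 0.2, adjusted 0.633).

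Because neighbouring lengths are not independent, counts were also summed over the listed lengths of a parent and side. Of 95 such ladders, 40 differed (42.1%; edgeR adjusted p below 0.05), 25 higher (26.3%) and 15 lower (15.8%) at day 7. The count was 22 without day 7 replicate 1, 24 without day 7 replicate 2 or without day 3 replicate 1, and 19 without day 3 replicate 2. The trailers of Arg-ACG-1-3 led those that rose, with 154, 72.6 and 112 CPM at day 7 and 33.8, 17.3 and 29.3 CPM at day 3 (log2 fold change 2.17, SE 0.394, adjusted p = 0.000163). The other 9 with the smallest p were the Gln-CTG-1-M5 tRF-2 (4.18), 3' ladders of mitochondrial His-GTG (1.81), its variant form (2.22) and mitochondrial Trp-TCA (2.05), 3' ladders of Ala-CGC-1-M2 (1.77), Leu-AAG-1-M4 (1.27) and Ala-AGC-2-M2 (1.49), and trailers of Arg-ACG-3 (1.83) and iMet-CAT-1 (1.44). The Ala-AGC-2-M2 call was lost without day 7 replicate 1, day 7 replicate 2, day 3 replicate 1 or day 3 replicate 2 (adjusted p = 0.065 to 0.0927), and the Leu-AAG-1-M4 call without day 3 replicate 1 (adjusted p = 0.0742). With listed counts as the total both were lost (adjusted p = 0.152 and 0.165), as was the iMet-CAT-1 call (0.14). None of these 10 is a 5' ladder, although most of the 95 ladders are. Among the ladders with larger p that rose were the 5' ladders of Gly-GCC-2-M3 (0.60), His-GTG-2 (0.96), His-GTG-1 (1.19) and mitochondrial Ser-TGA (1.36).

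All 10 ladders that led those that fell were 5' ladders, a kind that also made up most of the ladders tested. That of Glu-CTC-2 had 93.0, 131 and 139 CPM at day 7 and 450, 376 and 446 CPM at day 3 (log2 fold change -1.66, SE 0.358, edgeR adjusted p = 0.00097). That of Val-AAC-1-M2, the most abundant of the 10, had 3730, 4885 and 2954 CPM at day 7 and 8943, 9117 and 8928 CPM at day 3 (-1.09, adjusted p = 0.00741). The others were Asp-GTC-2 (-1.92), Ala-CGC-5 (-1.52), Leu-CAG-1-M3 (-1.54), Leu-AAG-2-M3 (-1.75), Ala-CGC-3-M3 (-2.25), Val-AAC-5 (-1.17), Pro-AGG-1-M4 (-1.87) and Val-CAC-1 (-1.16). The Ala-CGC-3-M3 and Pro-AGG-1-M4 calls rested on day 3 replicate 2, without which the values were -1.23 (adjusted p = 0.196) and -0.92 (adjusted p = 0.22). Without that library the calls of Val-AAC-1-M2 (adjusted p = 0.0501) and Val-AAC-5 (adjusted p = 0.0582) were lost too. The Val-AAC-1-M2 call was also lost without day 7 replicate 3 (adjusted p = 0.0513), and that of Val-CAC-1 without day 7 replicate 1 (adjusted p = 0.0611). The 5' ladders of Glu-TTC-3 (-0.20) and Lys-CTT-3 (-0.23), whose lengths moved apart, did not pass as sums.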

How the data were processed

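Small RNA was sequenced after treatment that removes modifications blocking adapter ligation or reverse transcription, and libraries were selected by size on a gel, per the labels' protocols, so other lengths are under-represented. Tools named in the submitters' processing notes are Bowtie, edgeR and FastQC (no versions), with build mm10. The authors deposited raw counts of reads and CPM (counts scaled to mapped reads) per fragment, per the file headers. The mapped total of a library was taken as the ratio of count to CPM. The table has 200 fragments of 14 to 40 nt, each reaching 20.1 CPM in some library; 7 empty lines were not used.

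The edgeR package (4.0.16, R 4.3.3) tested the counts: group means over all 9 libraries, mapped totals with TMM factors (0.749 to 1.14), filterByExpr (0 removed), a quasi-likelihood F test of day 7 minus day 3 and adjustment over 200 fragments. The SE is the log2 fold change divided by the square root of F. Shares used two-sided exact permutation tests over 20 assignments (scipy 1.17.1); count ratios had 0.5 added. Correlations of log2 CPM were 0.933 to 0.959 within day 7, 0.954 to 0.972 within day 3 and 0.852 to 0.933 between them; no libraries agreed within sampling noise. The code was tested on simulated data. Named were the 12 fragments per direction with the smallest p among those that passed, the 5 most abundant, the most abundant of each class, and 10 ladders per direction. Members, lists and tests were chosen with earlier results of these data known. Alternatives were DESeq2 1.42.0, limma-voom 3.58.1, other scalings, a minimum mean of 100 CPM, no filter, a fit of the 6 libraries, other thresholds, a replicate block and each library left out. Nuclear tRNA genes were not located here.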

Additional observations from a re-analysis of the deposited data

How the results depend on the processing

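The count of 69 fragments was 31 where a mean of at least 100 CPM was required, and the ladder count of 40 was then 13 (7 higher, 6 lower); fewer were tested there. Fragments higher (46) and lower (23) were 17 and 14 at that minimum, 30 and 39 with mapped totals, and 9 and 63 with listed counts, and 26 were higher in a fit of the 6 libraries alone. Lower counts were 39 with DESeq2, 35 with RLE factors, 39 with TMM without Gly-GCC, and 35 at an adjusted p below 0.1 or an unadjusted p below 0.05. Ladders higher (25) were 13 with mapped totals and 8 with listed counts, and those lower (15) were 25 with listed counts. With each day 7 or day 3 library left out, fragments numbered 39 (without day 3 replicate 2) to 72, with 24 to 47 higher and 13 to 25 lower; 44 were left without day 7 replicate 1 and 45 without day 3 replicate 1. Ladders then numbered 19 to 42, with 9 to 27 higher and 6 to 15 lower; without day 7 replicate 1, day 7 replicate 2, day 3 replicate 1 and day 3 replicate 2 they were 22, 24, 24 and 19. The cause was not tested. Signs turned for tRF-1:30-Gly-GCC-2-M3 (-0.31 to 0.37 over the libraries left out) and tRF-1:31-Gly-GCC-1 (-0.30 to 0.14) without day 7 replicate 1 or day 3 replicate 1, and for tRF-1:22-chrM.Ser-GCT (-0.17) with listed counts. Day 7 minus day 3 differences in percent also turned: tRF-5c as a share of mapped reads (15.9), and 14 to 17 nt (1.58) and 23 to 29 nt (0.96) among counts other than Gly-GCC. None of the 69 fragments changed sign under any other fit that tested it. Of 3 day 7 and day 3 pairs with a shared replicate number, 0 correlated above 0.1 in their deviations from the group means. Over all 9 same-number pairs, untreated libraries included, 2 did. So few pairs cannot tell whether libraries were paired. A replicate block gave 64 fragments, 42 higher and 22 lower, and 36 ladders.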
